A study of Mus musculus with 2 samples.

Results

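Mature neutrophils with an interferon signature were described in single-cell RNA-seq of a healing skull defect. The members were 253 cells, 186 from the library of mice given gambogic amide (GA) and 67 from the library of mice given vehicle (control), out of 3430 mature neutrophils and 17129 kept cells. GA is a small-molecule agonist of TrkA, the receptor of nerve growth factor. All mice were males of 2 months, C57BL/6 in the labels and C57BL/6J in the study's methods, with a circular calvarial defect of 1.8 mm, and each received 100 µL intraperitoneally every day, beginning 24 h before the injury. The GA group received 1.2 mg/kg GA in 10% DMSO and the control group received 10% DMSO alone, according to the labels. Tissue around the defect, about 3 mm along each edge, was taken on day 7 and digested with collagenase, and red blood cells were lysed. The tissue of 5 mice was pooled for each library, so each condition has 1 library, no test between conditions was made, and condition and library cannot be told apart. The intervals given cover counting error only.

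A kept cell had 500 to 140000 unique molecular identifiers (UMIs, each standing for 1 captured RNA molecule), between 200 and 9500 genes, and no more than 15% of its UMIs from mitochondrial genes. A kept cell was a mature neutrophil when S100a8 and S100a9 together held at least 5% of its UMIs, Camp, Ngp and Ltf together held under 0.5%, and Col1a1 and Col1a2 together held under 1%. It was a member when it also had at least 5 UMIs of Ifit1, Ifit3, Rsad2 and Isg15 together and under 5 UMIs of Ccl3 and Ccl4. These measured values chose the cells, so their levels are a description of the choice and not a finding. The comparison cells, called plain, met the same rule but had under 5 UMIs of the 4 interferon genes, with 1937 in GA and 802 in control. The remaining 346 and 92 mature neutrophils had at least 5 UMIs of Ccl3 and Ccl4 and are called chemokine cells.

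The GA matrix held 182949385 UMIs in 9322 barcodes and the control matrix held 214993030 UMIs in 8718 barcodes. Members had a median of 5568 UMIs and 1570 genes in GA, and 3846 UMIs and 1338 genes in control. Plain cells had medians of 5783 and 4349.5 UMIs. Control neutrophils were therefore the shallower ones although the control library was deeper over all kept cells, with medians of 17499 UMIs against 11267. The libraries shared 21 kept barcodes, 1 of them a member in 1 library, and no barcode was a member in both. The highest doublet scores marked 2 GA members and no control member.

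Type I interferons are cytokines secreted by cells that sense viral or misplaced nucleic acid. They bind a receptor of 2 chains, IFNAR1 and IFNAR2, and the kinases JAK1 and TYK2 then activate a transcription factor complex that holds STAT2 and IRF9 and binds interferon-stimulated response elements in the promoters of many genes. The products of those genes block viral replication, sense nucleic acid, present antigen and damp the signal itself. Neutrophils are short-lived granulocytes that reach injured tissue early, and a small subset carrying an interferon signature is known in the blood, bone marrow and inflamed tissue of mice.

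The 4 interferon genes of the rule cover several branches of that response. Ifit1 and Ifit3 encode tetratricopeptide proteins that bind viral RNA or scaffold such binding, Rsad2 encodes viperin, which makes a chain-terminating nucleotide, and Isg15 encodes a ubiquitin-like modifier. In GRCm38 (mm10), Ifit1 lies at chr19:34640871-34650009 and Ifit3 at chr19:34583531-34588731, both on the plus strand. Rsad2 lies at chr12:26442746-26456452 and Isg15 at chr4:156199424-156200818, both on the minus strand. Their promoters are shown because the members were chosen by these genes. The promoters of Ifitm1 (chr7:140967221-140969825, plus strand) and Ifitm3 (chr7:141009586-141010770, minus strand), which encode membrane proteins that hinder viral entry, are shown because these genes had the most member UMIs among interferon-induced genes outside the rule. Each sequence is from RefSeq, build GRCm38.p6, runs 5′ to 3′ on the strand of the gene from 250 bases before to 50 bases after a RefSeq transcription start, and covers the promoter and the start of the transcript. Capitals mark each match to GAAANNGAAA, the core of the interferon-stimulated response element, or to its reverse complement TTTCNNTTTC.
Ifit1: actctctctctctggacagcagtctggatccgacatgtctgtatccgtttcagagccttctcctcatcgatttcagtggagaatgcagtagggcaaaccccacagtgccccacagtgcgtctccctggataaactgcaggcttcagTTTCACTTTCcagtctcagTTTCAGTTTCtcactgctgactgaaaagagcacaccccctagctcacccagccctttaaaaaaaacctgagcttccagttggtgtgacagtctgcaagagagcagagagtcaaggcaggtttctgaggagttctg
Ifit3: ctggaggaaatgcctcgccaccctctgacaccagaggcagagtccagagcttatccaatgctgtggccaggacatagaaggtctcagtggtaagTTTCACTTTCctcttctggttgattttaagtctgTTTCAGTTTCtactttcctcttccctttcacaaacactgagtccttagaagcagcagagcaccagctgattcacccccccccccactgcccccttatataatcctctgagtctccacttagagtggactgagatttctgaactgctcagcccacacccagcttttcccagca
Rsad2: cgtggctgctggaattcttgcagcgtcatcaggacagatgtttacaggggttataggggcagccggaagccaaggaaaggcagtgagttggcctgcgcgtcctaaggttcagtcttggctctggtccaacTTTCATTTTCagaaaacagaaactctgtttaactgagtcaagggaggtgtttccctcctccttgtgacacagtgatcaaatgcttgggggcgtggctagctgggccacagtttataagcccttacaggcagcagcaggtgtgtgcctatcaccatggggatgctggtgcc
Isg15: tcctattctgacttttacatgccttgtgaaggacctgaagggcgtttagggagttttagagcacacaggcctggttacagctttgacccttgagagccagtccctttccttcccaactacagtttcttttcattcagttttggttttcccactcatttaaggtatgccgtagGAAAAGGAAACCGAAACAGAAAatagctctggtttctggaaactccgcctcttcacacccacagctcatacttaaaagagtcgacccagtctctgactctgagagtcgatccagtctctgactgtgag
Ifitm1: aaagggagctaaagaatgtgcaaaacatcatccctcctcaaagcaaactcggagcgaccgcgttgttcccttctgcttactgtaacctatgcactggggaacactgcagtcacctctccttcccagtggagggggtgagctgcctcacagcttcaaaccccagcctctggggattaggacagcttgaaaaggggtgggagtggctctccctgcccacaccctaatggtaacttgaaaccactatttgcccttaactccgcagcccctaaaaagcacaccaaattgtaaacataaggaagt
Ifitm3: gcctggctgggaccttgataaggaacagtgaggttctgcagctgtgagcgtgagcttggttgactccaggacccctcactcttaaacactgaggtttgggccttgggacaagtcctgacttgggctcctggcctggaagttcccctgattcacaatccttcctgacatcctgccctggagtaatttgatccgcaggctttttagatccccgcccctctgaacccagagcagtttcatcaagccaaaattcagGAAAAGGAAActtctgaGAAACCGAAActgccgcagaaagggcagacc

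The windows are chr19:34640639-34640938 for Ifit1, chr19:34583279-34583578 for Ifit3, chr12:26456403-26456702 for Rsad2, chr4:156200769-156201068 for Isg15, chr7:140967826-140968125 for Ifitm1 and chr7:141010695-141010994 for Ifitm3. Ifit1 and Ifit3 held 2 matches each, Rsad2 held 1, and Isg15 held 3, each of which overlaps its neighbour. The 2 matches of Ifitm3 began 3 and 20 bases after the start, and the Ifitm1 window held none of these letters. Over all 32851 promoters of the same length, 3.44% held a match on either strand. A match is a description of the sequence and not evidence of binding in these cells.

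Isg15 and Rsad2 gave most of the UMIs by which members were chosen. Of 2487 four-gene UMIs in GA members, 47.8% came from Isg15, 32.9% from Rsad2, 14.5% from Ifit1 and 4.74% from Ifit3. Of 799 in control members, the shares were 46.4%, 35.0%, 12.9% and 5.63% in the same order, so the makeup was close in both libraries. Isg15 stood at 1064 CPM (counts per 1000000 UMIs of the class, with no scaling for gene length) in GA members against 64.0 in GA plain cells, and at 1309 against 83.0 in control. Rsad2 stood at 732 against 33.1 CPM in GA and 988 against 53.1 in control. Ifit1 stood at 322 against 4.92 CPM and 363 against 6.70. Ifit3 stood at 105 against 2.21 CPM and 159 against 2.58.

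Isg15 was seen in 89.8% of GA members and 26.3% of GA plain cells, and in 7.79% of GA B cells. B cells should hold little of it, and had medians of 6959.5 UMIs in GA and 6209 in control. In control the shares for Isg15 were 91.0%, 25.8% and 5.48%. Rsad2 was seen in 74.7% of GA members, 14.6% of plain cells and 1.79% of B cells, and in 80.6%, 16.6% and 1.33% in control. Plain cells were thus above B cells for both genes, at depths below those of the B cells. Ifit1 was seen in 38.7% and 35.8% of members, 2.32% and 2.49% of plain cells, and 0.649% and 1.50% of B cells. Ifit3 was seen in 21.5% and 29.9% of members, and its 1.24% and 1.25% of plain cells stood beside 1.62% and 1.33% of the deeper B cells. Per UMI, Ifit3 stood at 2.21 and 2.58 CPM in plain cells and 1.43 and 1.59 in B cells; how much of it is background was not tested.

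Members differed widely in strength. The four-gene count had a median of 7.5 UMIs in GA members and 8 in control members, with upper quartiles of 12 and 12.5 and maxima of 167 and 62. The 5 strongest cells held 22.8% of the UMIs in GA and 26.9% in control, so sums over members lean on a few cells. Only 1 of the 4 genes was seen in 23.7% of GA and 16.4% of control members, and all 4 were seen in 15.1% and 14.9%. Just inside the threshold, 73 GA members (39.2%) and 20 control members (29.9%) had 5 or 6 UMIs. Just outside it, 157 GA and 72 control plain cells had 3 or 4 UMIs. No four-gene UMI was found in 62.5% of GA plain cells and 61.3% of control plain cells. The threshold therefore crosses a continuous range of counts, as the plot of cells by four-gene UMIs shows.

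**Figure D1:**
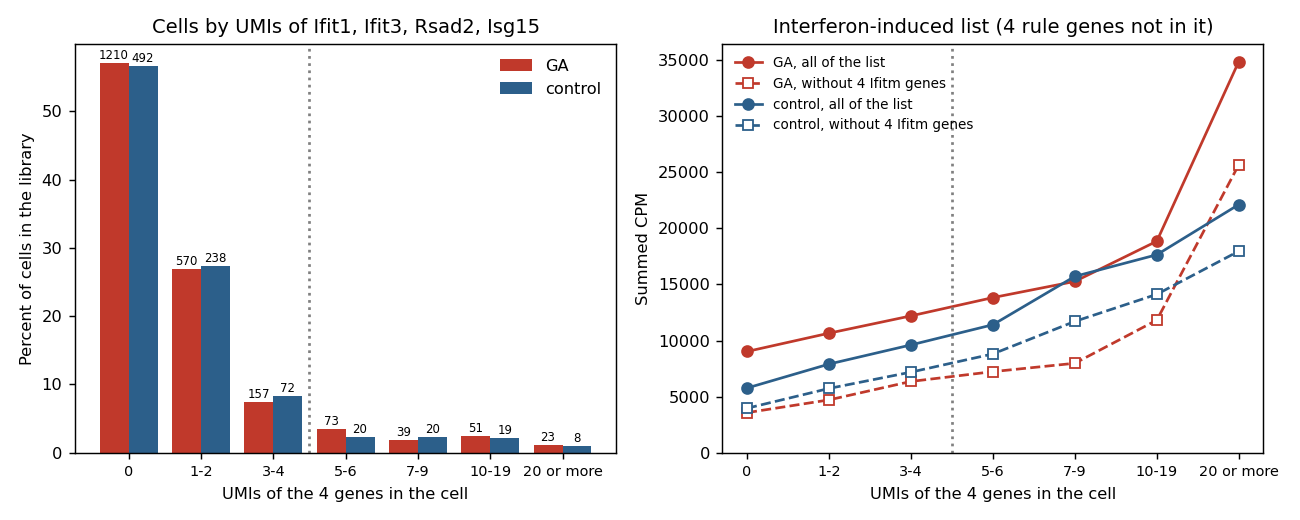
Left, percent of member and plain cells of each library by their UMIs of Ifit1, Ifit3, Rsad2 and Isg15, with cell numbers above the bars and a dotted line at the threshold of 5. Right, summed CPM of the interferon-induced list in the same bins (solid, all genes; dashed, without 4 Ifitm genes); the list stood at 9023 CPM in GA cells without a four-gene UMI and at 34877 CPM in those with 20 or more.

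The neutrophil markers were checked first. Csf3r, the receptor of granulocyte colony-stimulating factor, was seen in 100.0% of GA and 98.5% of control members, and in 7.79% and 3.82% of B cells. Cxcr2, the chemokine receptor of mature neutrophils, was seen in 97.8% and 91.0% of members and in 1.79% and 1.16% of B cells. Retnlg, a secreted resistin-like protein of mature neutrophils, was seen in 96.2% and 94.0% of members and in 30.8% and 9.97% of B cells. Ly6g, the surface marker of mouse neutrophils, was seen in 54.8% of GA and 25.4% of control members, 63.9% and 43.6% of plain cells, and 1.79% and 0.166% of B cells. The proliferation gene Top2a had no UMI in members, and no Camp, Ngp or Ltf UMI was found in 26.3% of GA and 62.7% of control members.

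The first question was what members carried beyond the genes that chose them, and the answer was most of the interferon-induced genes of the fixed lists. The interferon-induced list joins 4 lists of 82 genes, of which 80 were in the files and none was in the rule. Members had a summed level of 18002 CPM of it against 9764 in plain cells in GA, and 15816 against 6715 in control. Per gene, the median log2 ratio of members over plain cells was 1.65 in GA, where 60 of the 71 genes with at least 20 UMIs had an interval above 0 and none had one below. In control the median was 1.38, with 43 of 60 intervals above 0 and 2 below. Over all genes with at least 20 UMIs the medians were -0.10 and -0.07, with 774 intervals above 0 and 1147 below among 9907 genes in GA, and 553 above and 548 below among 7578 in control. The list counts that follow stand beside these. Members and plain cells were split by genes of the same response in the same cells, so these values describe the split and support nothing further.

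By a size rule used in place of a test, 91 of 6889 genes with at least 100 UMIs (1.32%) were more than 1 log2 unit higher in members in both libraries, and 282 (4.09%) were more than 1 log2 unit lower in both. The latter were 41 without 20 GA and 9 control plain cells rich in azurophil granule genes, described further on. Of the 57 interferon-induced genes measured, 38 were among the higher genes and none among the lower. Of all 91 higher genes, inside or outside that list, the 10 with the highest ratios were Ifit3b, Usp18, Herc6, Oasl1, Slfn5, Slfn8, Gbp2, AW011738, Cmpk2 and Rnf213. The 53 higher genes outside the interferon-induced list included Stat2, Irf7, Irf9, Gbp7, Irgm1, Irgm2, Tap1, Trim14, Parp10 and Helz2, which other lists or no list held.

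The antiviral effectors held the gene with the highest ratios among those with at least 100 UMIs, Ifit3b. As a list their median log2 ratio was 1.62 in GA, with 26 of 29 intervals above 0, and 1.49 in control, with 22 of 26 above and 2 below. Ifit3b, a close copy of Ifit3, stood at 80.4 CPM in GA members against 2.95 in plain cells and at 159 against 4.64 in control. Reads of Ifit3b and Ifit3 can be hard to assign to either copy, so this value is uncertain. Ifit2, another member of that family, stood at 36.6 CPM in GA members and 56.5 in control members, against 0.820 and 0.773 in plain cells, and was found in 10 GA and 5 control members. Slfn4, a Schlafen protein of myeloid cells, stood at 1287 against 349.8 CPM in GA and 1468 against 289.6 in control, with log2 ratios of 1.88 (95% interval 1.79 to 1.97) and 2.34 (2.18 to 2.51). Slfn5 stood at 329 against 28.8 CPM and 261 against 34.0, and Slfn8 at 100.1 against 11.1 and 162 against 21.9. Oasl1, a relative of the 2-5A synthases, stood at 199 against 20.3 CPM in GA and 205 against 25.8 in control.

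The Ifitm genes, whose products sit in membranes and hinder viral fusion, had ratios under the effector median in both libraries. Ifitm3 stood at 1687 against 993 CPM in GA and 1422 against 635 in control, and Ifitm2 at 1638 against 1339.9 and 1069 against 679. Ifitm1 stood at 3199.7 against 2617 CPM in GA and at 741 against 332 in control. Its ratio was 0.29 in GA and 1.16 in control, with an abundance that differed more between the libraries than between the classes. Ifitm6, another gene of the family, was below 0 in both libraries, at -0.06 (-0.17 to 0.05) in GA and -0.40 (-0.79 to -0.06) in control.

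Sensors of nucleic acid were also higher in members, with a median log2 ratio of 1.87 in GA, where 11 of 15 intervals lay above 0, and 1.35 in control, where 5 of 10 did. Ddx58, which encodes the RNA sensor RIG-I, stood at 165 against 45.4 CPM in GA and 219 against 46.6 in control. Ifi204, a DNA-binding protein of the p200 family, stood at 224 against 41.4 CPM and 261 against 69.3. Zbp1, a sensor of left-handed nucleic acid that can start cell death, stood at 113 against 20.3 CPM and 91.7 against 19.8. Cgas, which makes the second messenger of the STING pathway, had 3 and 1 UMIs in members, too few for a ratio.

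The ISG15 pathway and its feedback genes had a median log2 ratio of 2.12 in GA, with 12 of 13 intervals above 0, and 1.54 in control, with 10 of 13. Usp18, the protease that removes ISG15 and dampens the receptor, stood at 76.9 against 5.08 CPM in GA and 95.3 against 5.15 in control. Herc6, the ligase that attaches ISG15 in mice, stood at 123 against 9.27 CPM and 131 against 5.41. Parp14 stood at 166 against 32.1 CPM in GA and 141 against 33.5 in control. Socs3, an inhibitor of cytokine receptors induced mainly by STAT3, had ratios of 0.25 (-0.00 to 0.49) and 0.71 (0.23 to 1.14), and Trim25 had 0.44 and 0.57. The remaining interferon-induced genes had medians of 1.21 in GA, with 11 of 14 intervals above 0, and 1.24 in control, with 6 of 11. Among them, Rtp4 stood at 401 against 109 CPM and 508 against 114, and Sp100, a nuclear body protein, at 597 against 269 and 547 against 255. Il15, a cytokine for lymphocytes, had ratios of 0.05 and -0.18 with intervals that held 0.

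**Figure D2:**
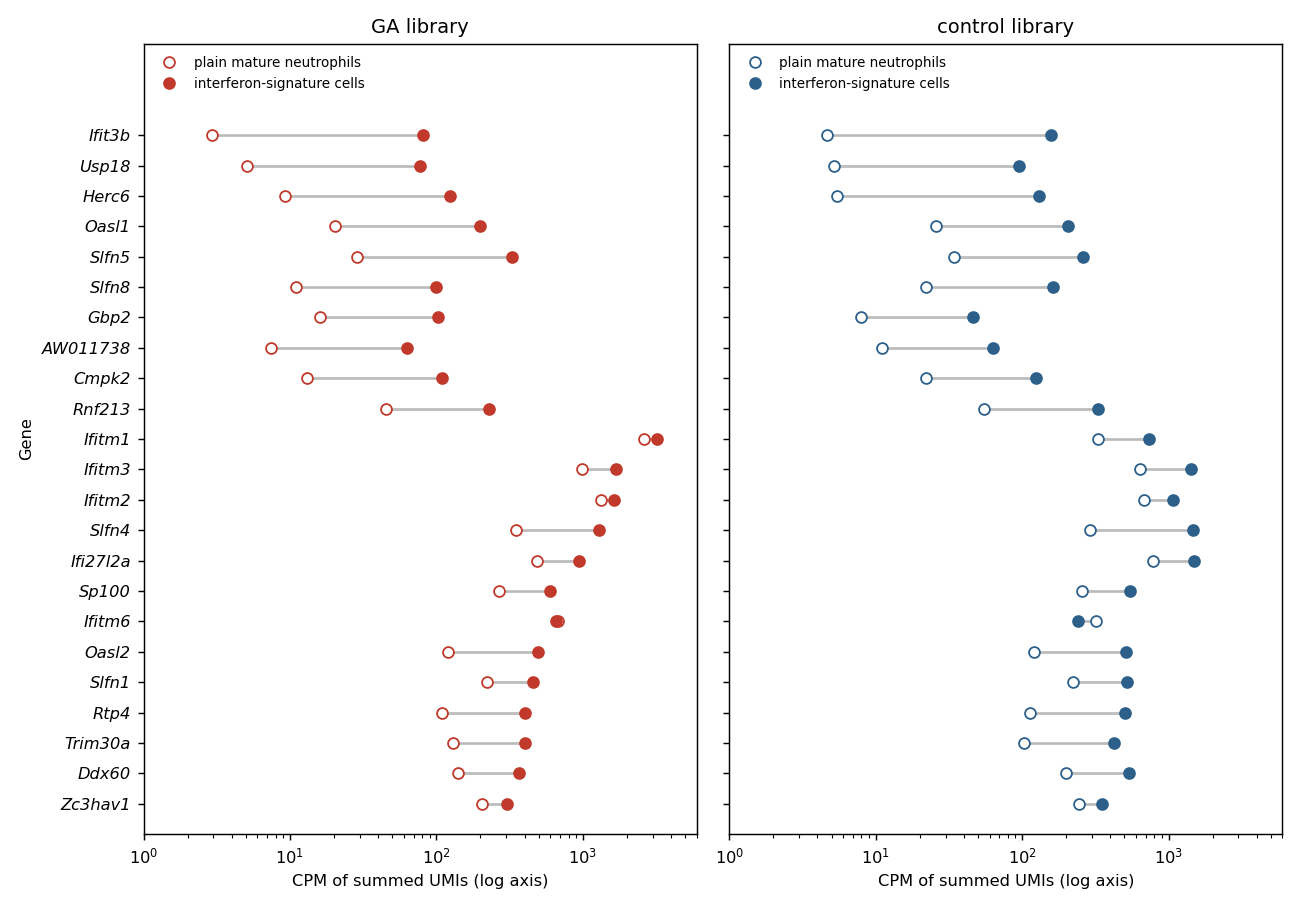
CPM (log axis) of 23 genes in members (filled) and plain mature neutrophils (open), with 1 panel per library. Usp18, Oasl1 and Slfn5 separate in both panels, whereas the points of Ifitm6, at 653 and 681 CPM in GA, lie close together.

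Genes that carry the interferon signal differed among themselves. The list of receptors, kinases and factors had medians of 0.22 and 0.21, with 7 and 6 of 18 intervals above 0. Irf7, a factor that amplifies type I interferon production, stood at 147 CPM in GA members against 33.1 in plain cells and at 162 against 38.9 in control, with ratios of 2.16 and 2.07. Irf9 had ratios of 1.44 and 1.13, and Stat2 had 2.03 and 1.42. Ifnar2 had -0.12 (-0.32 to 0.08) and 0.08 (-0.31 to 0.43), Jak1 had -0.11 and -0.13, and Stat3 had 0.08 and 0.03, all with intervals that held 0. No UMI of any of the 21 interferon ligand genes was found in members or plain cells of either library, at 1118853 and 283390 UMIs over the members.

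The guanylate-binding proteins and immunity-related GTPases, which attack the membranes around intracellular microbes, had the highest median of the lists, 2.31 in GA with 7 of 8 intervals above 0 and 1.78 in control with 4 of 6. Gbp2 stood at 102 against 16.0 CPM in GA and 45.9 against 7.99 in control. Gbp7 stood at 77.8 against 18.2 and 67.0 against 18.3, and Irgm1 at 42.0 against 8.28 and 24.7 against 5.93. The control values of Gbp2 and Irgm1 rest on 13 and 7 member UMIs. Class I antigen presentation had smaller differences, with medians of 0.79 and 0.65 and 14 and 9 of 16 intervals above 0. B2m, the light chain of class I molecules, had ratios of 0.61 and 0.49, and the heavy chain gene H2-D1 had 0.24 and 0.52. Tap1, which feeds peptides to class I molecules, had 1.42 and 1.54, and Nlrc5, the activator of class I genes, had 1.76 and 2.62.

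Interferon-linked chemokines did not follow as a list. Their medians were -0.10 over 5 genes in GA and -0.64 over 3 genes in control, and their sum in members was 128.7 CPM against 45.7 in GA and 31.8 against 50.2 in control. Cxcl10, which attracts T cells, made up the GA value with 98.3 CPM in members against 7.22 in plain cells. Its 110 member UMIs lay in 11 of 186 cells, and 5 of them held 102. Control members had 2 Cxcl10 UMIs. The monocyte attractants Ccl2 and Ccl7 had ratios of 0.42 and -0.50 in GA, with intervals that held 0. Ccl5, which attracts T cells and monocytes, had 1 UMI in GA members against 130 in plain cells, a ratio of -2.997 (-8.89 to -1.07). Only 0.671% of GA plain cells held these UMIs, so the ratio rests on few cells. In control, Ccl5 had 0 UMIs in members and 3 in plain cells.

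Neutrophil programmes outside the interferon response had medians nearer to 0 than the interferon-induced list. Maturation and trafficking genes had medians of 0.15 and 0.00, with 10 of 20 intervals above 0 and none below in GA, and 5 above and 2 below in control. The 2 were Ly6g at -1.15 (-1.74 to -0.66) and Cd177, a surface glycoprotein of neutrophils, at -0.99 (-1.62 to -0.47). Csf3r had ratios of 0.20 and 0.24, and Cxcr2 had 0.23 (0.14 to 0.31) and 0.02 (-0.17 to 0.19). Genes of the NADPH oxidase, which makes the respiratory burst, had medians of -0.08 and -0.10, with Ncf1 at -0.10 and -0.11 and intervals that held 0. Granule protein genes outside the rule were mostly lower in members, with medians of -0.18 and -0.64. Of 17 intervals, 14 in GA and 13 in control lay below 0, and 1 and 2 lay above. Those above were Slpi, at 0.24 (0.19 to 0.30) in GA and 0.32 (0.20 to 0.42) in control, and Hp in control, at 0.17 (0.01 to 0.33). The list includes Elane, Prtn3, Ctsg and Mpo, whose plain UMIs lay almost wholly in 20 GA and 9 control cells, as described further on. Retnlg stood at 18657 against 20602 CPM in GA and 15304 against 20636 in control, Lcn2, which binds bacterial siderophores, at 2755 against 3117 and 1044 against 1688, and Mmp8, neutrophil collagenase, at 1457 against 1570.3 and 836 against 1440.0.

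Inflammatory mediators were slightly higher in members, with medians of 0.35 and 0.41 and intervals above 0 for 12 and 9 of 15 genes. Il1b stood at 6597 against 4871 CPM in GA and 6630.4 against 4244 in control, with ratios of 0.44 and 0.64. Cxcl2, a chemokine that recruits neutrophils, had 0.46 and 0.72, and Ptgs2, the inducible cyclooxygenase, had 0.76 and 0.59. Cell death genes had medians of 0.30 and 0.50, with 7 of 15 and 5 of 13 intervals above 0 and Mcl1, a survival factor of neutrophils, at 0.22 and 0.50. Genes of dissociation and stress had medians of 0.31 and 0.22, with 6 and 5 of 11 intervals above 0 and 3 and 1 below. Fos stood at 1954 against 1473 CPM in GA and 2078 against 1469 in control, and Egr1 at 565 against 371 and 575 against 315. The nuclear retained RNAs Malat1 and Neat1 had ratios of 0.23 and 0.32 in GA and 0.25 and 0.39 in control. The part of stress and nuclear RNA in the inflammatory difference was not tested.

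The 10 lowest genes in members, Elane, Prtn3, Ms4a3, Ctsg, Mpo, Nkg7, Hist1h1b, Dut, Vcam1 and Top2a, had at most 8 UMIs in the members of a library. Elane, Prtn3, Ctsg and Mpo encode azurophil granule proteins that neutrophil precursors make, and their UMIs in plain cells lay almost wholly in a few cells. Elane stood at 4.47 CPM in GA members against 704 in plain cells and at 3.53 against 958 in control. In GA, 20 plain cells with at least 10 UMIs of these 4 genes, and a median of 32945.5 UMIs per cell, held 98.9% of the azurophil UMIs of plain cells. In control, 9 such cells with a median of 29480 UMIs held 99.8%. No member was such a cell. Without those cells 84 genes were higher and 41 lower by the size rule, in place of 91 and 282, and Ctsg and Mpo in GA turned to 0.43 and 0.31.

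Markers of other cell types were low in members. Monocyte or macrophage markers summed to 119.8 CPM in GA members against 168.8 in plain cells and to 159 against 178 in control. Their most abundant genes were Csf1r, at 56.3 and 63.5 CPM, and Adgre1, at 43.8 and 67.0, which stood at 59.9 and 62.6 and at 48.0 and 51.0 in plain cells. Members held 7 and 0 UMIs of dendritic markers, 19 and 7 of plasmacytoid dendritic markers, all of Tcf4, 2 and 0 of B cell markers, 9 and 7 of T or NK markers, all of Cd3d, and 21 and 3 of endothelial markers, most of Pecam1. Mesenchymal markers outside the rule had 1 and 1 UMI, progenitor markers 5 and 0, basophil or mast markers 1 and 0, and dividing markers 4 and 2. Siglech, Ccr9, Cd79b, Cd3e, Cd3g and Trac were at 0 in members of both libraries. Erythroid markers summed to 34.0 CPM in GA members against 42.6 in plain cells, and to 60.0 against 1333 in control, where plain cells carried the higher level.

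The interferon-induced list climbed with the four-gene count among plain cells and members alike. In GA it went from 9023 CPM in cells with no four-gene UMI to 12198 in those with 3 or 4, 13829 with 5 or 6, 18856 with 10 to 19 and 34877 with 20 or more. In control it went from 5764 to 9609, 11409.7, 17649.9 and 22125 in the same bins. Without the Ifitm genes the list went from 3569 CPM in the lowest bin to 25678 in the highest in GA. In control it then went from 3960 to 17970, so the lowest GA bin was no longer above the lowest control bin. The median cell had at least 1 UMI of 14 list genes in the lowest GA bin and of 37 in the highest, and of 12 and 28.5 in control, while median UMIs per cell lay between 4940.0 and 5858 in GA and between 3812 and 4504 in control. Cells just under the threshold thus lay between cells without the 4 genes and members.

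Genes climbed in different ways. Oasl2 was at 85.6 CPM in the lowest GA bin, 280.2 at 3 or 4 UMIs, 309 at 5 or 6, 619 at 10 to 19 and 1011 at 20 or more, and at 83.1, 283, 317, 759 and 476 in control. Usp18 went from 2.23 through 15.5, 28.9 and 78.6 to 288 CPM in these GA bins, and from 2.07 through 30.1, 93.8 and 114 to 132 in control, with 61.6 at 7 to 9 UMIs. Slfn4 went from 290.0 through 583, 781 and 1377 to 3522 CPM in GA, and from 236 through 565, 668 and 2061 to 2197 in control. These genes were higher in each of these GA bins than in the one before, whereas in control Oasl2 was lower in the highest bin, and Usp18 at 7 to 9 UMIs, than in the bin before. Ifit2 and Cxcl10 instead stayed low until the last bin in GA. Ifit2 was at 0.786 CPM in the lowest GA bin, 13.7 at 10 to 19 UMIs and 266 at 20 or more, and at 0.413, 50.6 and 318 in control. Gbp2 was higher in each GA bin than in the one before, with 13.7, 61.5 and 554 CPM in these bins, and was at 5.37, 50.6 and 106 in control. Cxcl10 was at 6.55, 10.3 and 768 CPM in GA and at 9.50, 12.6 and 26.5 in control. The highest bin holds 23 GA cells and 8 control cells, so its values rest on few cells.

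Neutrophil genes outside the interferon response took several courses. Retnlg was at 20112 CPM in the lowest GA bin, 18213 at 10 to 19 UMIs and 9376 at 20 or more, and at 20203, 17195 and 10216 in control. Mmp8 was at 1534, 1538 and 591 CPM in GA and 1382, 847 and 476 in control. Both were lowest in the cells with the most interferon genes. Il1b was at 4824, 6439 and 10343 CPM in GA and 3931, 6347 and 9131 in control. Csf3r, which marks the lineage, was at 1384, 1839 and 1381 CPM in GA and 1377, 1745 and 1641 in control.

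**Figure D3:**
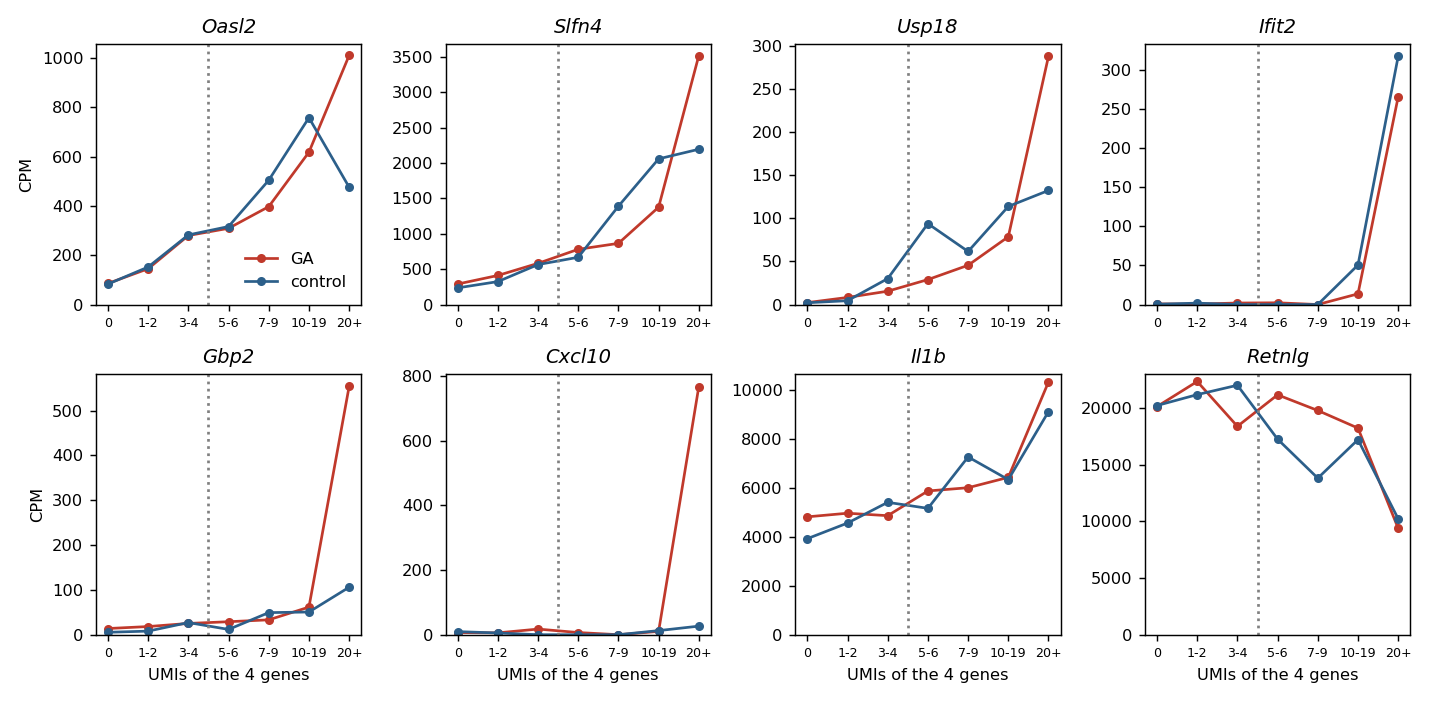
CPM of 8 genes in member and plain cells of each library by their four-gene UMIs. Oasl2, Slfn4 and Usp18 climb through the GA bins, Ifit2 reaches 266 CPM (GA) and 318 CPM (control) only in the last bin, and Retnlg ends at 9376 and 10216 CPM.

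The study compared GA with vehicle, and the members' share of mature neutrophils was counted in each library. By the rule it was 7.53% in GA (186 of 2469, exact Clopper-Pearson 95% interval 6.52 to 8.65) and 6.97% in control (67 of 961, 5.44 to 8.77), a ratio of 1.08 (0.826 to 1.41). Of all kept cells, members were 2.06% (1.78 to 2.37) in GA and 0.828% (0.642 to 1.05) in control, a ratio of 2.49 (1.88 to 3.28). Neutrophils of all kinds were 4598 of 9036 kept cells in GA and 1912 of 8093 in control, and members were 4.05% and 3.50% of them. Because control neutrophils were shallower, a threshold in UMIs asked more of them. With each cell thinned to 2000 UMIs and at least 2 UMIs of the 4 genes together, members were 9.57% in GA and 12.0% in control. The ratio was 0.80 (0.647 to 0.987). With at least 0.05% of a cell's UMIs, they were 11.3% and 15.6%, a ratio of 0.727 (0.605 to 0.873). Both settings also admitted more cells than the rule. They changed the Ccl3 and Ccl4 limit too, to under 2 UMIs after thinning and to under 0.05% of a cell's UMIs. The part of that limit in the ratios was not tested. A minimum of 3 UMIs, with no treatment of depth, gave 13.9% and 14.5%, so the ratio lay on either side of 1 by how members were called. Among all kept cells the ratio was 1.83 after thinning and 1.67 with the share of 0.05%.

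Members of the 2 libraries were then compared gene by gene. For the interferon-induced list the median log2 ratio of GA over control was -0.06 over 62 genes, 28 of them higher in GA. It had 9 intervals above 0 and 9 below, and its median was -0.13 in plain cells. With each cell thinned to 2000 UMIs, the median member held 17 UMIs of the list outside the Ifitm genes in GA and 24 in control, and the median plain cell 8 and 9. Over all 4737 genes with at least 20 UMIs the median was -0.09, with 298 intervals above 0 and 540 below. The rule's genes were lower in GA members, at -0.43 (-0.63 to -0.23) for Rsad2, -0.30 (-0.47 to -0.13) for Isg15, -0.60 (-1.10 to -0.06) for Ifit3 and -0.18 (-0.50 to 0.15) for Ifit1. A minimum of 5 UMIs stands for a higher CPM in the shallower control cells, so these ratios are tied to the rule. Usp18 had -0.33, Slfn4 -0.19, Ddx58 -0.41 and Irf7 -0.15, and all but the interval of Slfn4 (-0.35 to -0.03) held 0.

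By list, the medians of GA over control were -0.07 for antiviral effectors, 0.27 for sensors, 0.13 for the ISG15 pathway, -0.14 for the other interferon-induced genes and -0.09 for receptors, kinases and factors. GBP and GTPase genes had 0.82, with 2 of 6 intervals above 0, and Gbp2 stood at 102 CPM in GA and 45.9 in control, a ratio of 1.10 (0.32 to 2.10). A single GA member held 39 of its 114 UMIs and 5 held 61. Gbp2 had 0.98 in plain cells as well, whereas the median of the list there was -0.05. The other interval above 0 was that of Igtp, at 2.81 (0.82 to 8.71), which rests on 41 GA UMIs and 1 control UMI. Class I genes had -0.13, with 4 of 15 intervals below 0 and H2-K1 at -0.47. Inflammatory mediators had -0.16, and Il1b stood at 6597 and 6630.4 CPM, a ratio of -0.01 (-0.08 to 0.07). Granule genes outside the rule had 0.29, with 8 of 13 intervals above 0.

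By the size rule 66 of 1957 genes with at least 100 member UMIs (3.37%) lay beyond 1 log2 unit between GA and control members, 48 higher (2.45%) and 18 lower (0.92%). Of 43 interferon-induced genes measured, 2 were higher, Ifitm1 and Ifitm6, and none was lower. Ifitm1 stood at 3199.7 and 741 CPM, a ratio of 2.11 (1.91 to 2.32), and at 2.98 in plain cells. Ifitm6 stood at 653 and 240.0 CPM, a ratio of 1.44, and at 1.09 in plain cells. Ifitm1 was thus higher in GA in both members and plain cells. It was also higher in GA B cells, at 49.9 CPM against 11.3 in control. The part of background RNA in the B cell values was not tested.

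**Figure D4:**
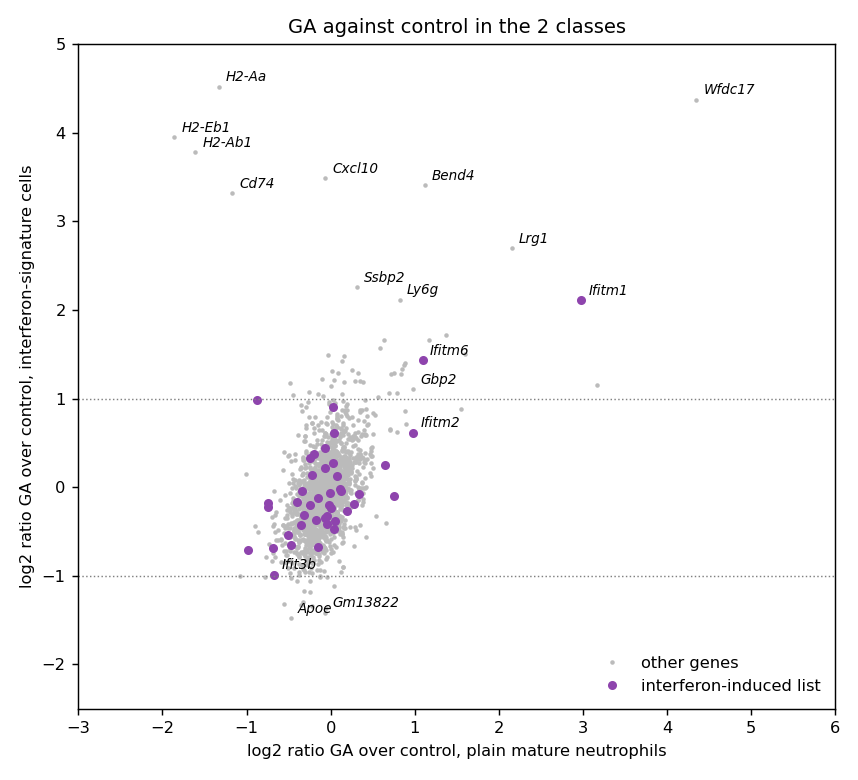
Log2 ratio of GA over control in plain mature neutrophils (x axis) and in members (y axis) for genes with at least 100 member UMIs, with interferon-induced genes in purple and dotted lines at 1 and -1. Wfdc17 (4.35 and 4.37) and Ifitm1 (2.98 and 2.11) lie far out on both axes, whereas Cd74 (-1.17 and 3.32) does not.

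Among the higher genes, Wfdc17 and Lrg1 lay beyond 1 log2 unit in plain cells as well. Wfdc17, a small secreted protein with an antiprotease fold, stood at 3026 CPM in GA members and 145 in control members, a log2 ratio of 4.37 (3.94 to 4.87), and was seen in 89.2% and 16.4% of cells. Its ratio in plain cells was 4.35, and B cells held 29.7 and 18.4 CPM. Lrg1, a leucine-rich glycoprotein of granules, stood at 560.4 and 84.7 CPM, with ratios of 2.70 in members and 2.15 in plain cells. Ly6g, Lcn2 and Wfdc21 were under 1 log2 unit in plain cells. Ly6g stood at 481 and 109 CPM, with 2.11 (1.61 to 2.71) in members and 0.82 in plain cells. Lcn2 stood at 2755 and 1044 CPM and Wfdc21 at 2494 and 988, with ratios of 1.40 and 1.33 in members and 0.89 and 0.85 in plain cells. Bend4 had 104 and 2 UMIs and Ssbp2 had 103 and 5, so their ratios of 3.40 and 2.25 rest on few control molecules, beside 1.12 and 0.31 in plain cells.

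The class II genes at the top of the ratios came from 1 cell. H2-Aa, H2-Eb1, H2-Ab1 and Cd74, which build and load the class II molecule of antigen-presenting cells, had ratios of 4.52, 3.95, 3.78 and 3.32. A single GA member held 352 of the 373 Cd74 UMIs, 223 of 226 for H2-Aa, 235 of 243 for H2-Ab1 and 200 of 213 for H2-Eb1. That cell had 21502 UMIs, 4163 genes, 71 four-gene UMIs and 9.83% of its UMIs in S100a8 and S100a9, and it was not among the marked doublets. Without it Cd74 had 21 UMIs in GA and 9 in control, a ratio of -0.77, and the size rule gave 60 genes. Cxcl10 likewise had a ratio of 3.48, from the few GA cells named before.

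The 10 lowest genes in GA members lay nearer to 0 than the 10 highest. Apoe, a lipid carrier that macrophages secrete, stood at 103 and 286 CPM, a ratio of -1.48 (-1.90 to -1.05), and B cells held 185 CPM in GA and 481 in control. Its part as background RNA was not tested. Spp1, the matrix protein osteopontin, stood at 209 and 526 CPM, a ratio of -1.33, and B cells held 72.2 and 51.8 CPM. Its ratio was 0.25 with cells thinned to 2000 UMIs, a setting that also called members from 2 four-gene UMIs. That setting left out cells with at least 2 UMIs of Ccl3 and Ccl4 as well. Which of these changes moved the Spp1 ratio was not tested. Uty, at -1.34, had 0.55 in that setting and 0.17 with at least 0.05% of a cell's UMIs, where no cell was thinned. Gm13822 had -1.42, Txnl1 -1.36, Ptgs2os2 -1.32, Agpat4 -1.30, Gpr132, a G protein-coupled receptor, -1.18, St3gal6, a sialyltransferase of selectin ligands, -1.17, and Ptpn2, a phosphatase that acts on JAK and STAT proteins, -1.11. Control members held 42 to 149 UMIs of each of these genes, against 2 to 41 of each of the 10 highest, and in plain cells none of the 10 lay beyond 1 log2 unit.

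The same 4 genes were counted in other cells at 2000 UMIs per cell, without the Ccl3 and Ccl4 limit. At least 2 UMIs were found in 11.4% of GA and 13.6% of control mature neutrophils of all kinds, and in 16.8% and 19.6% of chemokine cells. Immature neutrophils had 2.15% and 2.32%, and dividing neutrophils 0% and 0.463%, so the signature was more frequent in the mature than in the younger classes in both libraries. Monocytes and macrophages had 11.3% and 7.34%, T or NK cells 3.31% and 2.42%, and B cells 0.487% and 0.166%. Mesenchymal cells had 16.2% and 5.69% and endothelial cells 5.97% and 12.9%. Erythroid cells had the highest shares, 35.0% of 40 and 66.0% of 53 cells, while the rest of the interferon-induced list was low in them, with a median of 4 list UMIs outside the Ifitm genes against 17 and 24 in members. Unthinned, at least 5 UMIs were found in 14.2% and 13.0% of chemokine cells, 3.26% and 2.31% of immature neutrophils, and 0.812% and 1.16% of B cells. Monocytes and macrophages had 24.6% and 15.7%, and endothelial cells 20.9% and 38.8%. Mesenchymal cells had 50.2% and 27.7%, and erythroid cells 39.5% and 54.2%.

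**Figure D5:**
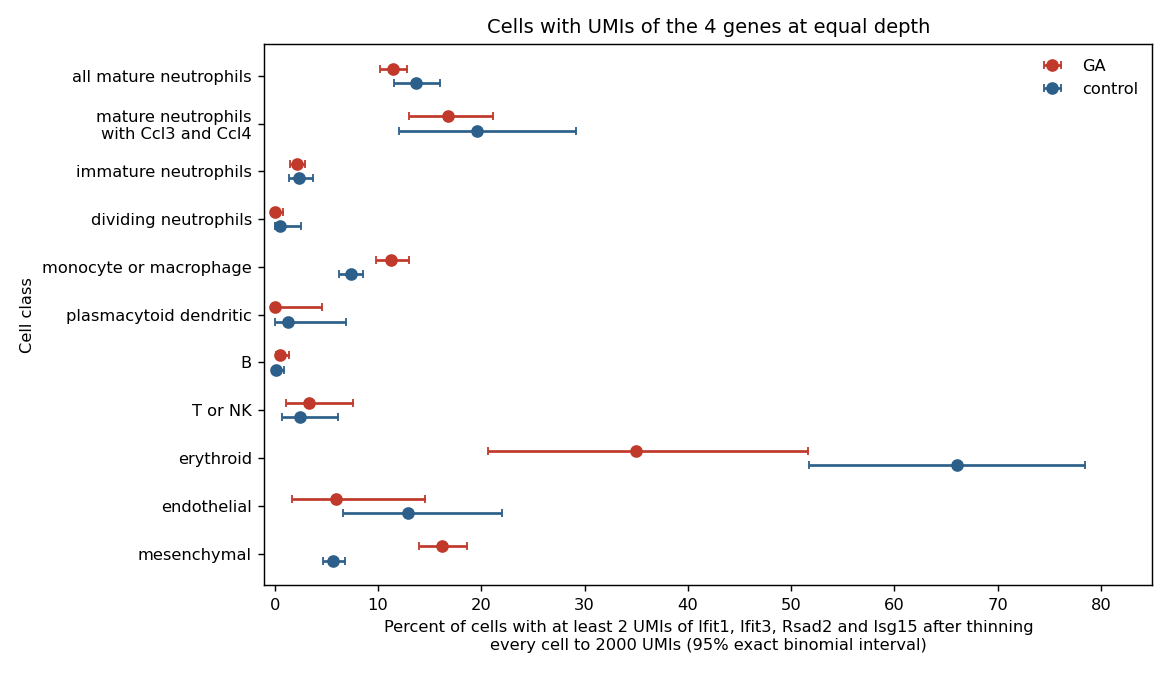
Percent of cells with at least 2 UMIs of Ifit1, Ifit3, Rsad2 and Isg15 after thinning to 2000 UMIs, by class and library, with exact 95% intervals that cover counting error. Chemokine cells (16.8% and 19.6%) lie above immature neutrophils (2.15% and 2.32%) and B cells (0.487% and 0.166%).

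Members were somewhat shallower than plain cells, with the medians of 5568 against 5783 UMIs in GA and 3846 against 4349.5 in control given before. With every cell thinned to 2000 UMIs per cell, members had medians of 853 genes in GA and 863.5 in control, and plain cells had 841 and 867. At that depth the median B cell had 6.5 and 7 UMIs of the interferon-induced list outside the Ifitm genes, near the 8 and 9 of plain cells. Chemokine cells had 11 and 12.5, monocytes and macrophages 13 and 11, and plasmacytoid dendritic cells 14 and 16. Members had 17 and 24. Thinning left out 1 member in each library and 12 and 7 plain cells.

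Promoters of the interferon-induced list and of the genes higher in members held the interferon-stimulated element more often than promoters at large. Of the 64 interferon-induced genes with a RefSeq promoter, 27 (42.2%) held GAAANNGAAA on either strand, against 1079 of 27025 genes (3.99%). Of the 91 genes higher in both libraries, 72 had a promoter and 25 of them held a match (34.7%). Outside the interferon-induced list 11 of 43 did (25.6%). The letters NN stand for any bases, matches may overlap, and these shares are a description with no test. The list was fixed as interferon-induced and the higher genes came from a split by the rule's interferon genes, so the shares support nothing further.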

How the data were processed

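Each library was a 10x Genomics matrix of counts, UMIs per gene and barcode, that the authors deposited without normalization. Its header names Cell Ranger 7.0.1; the study's methods name 7.1.0, chemistry v3.1 in one place and v4 in another, and a dose of 2 mg/kg for 4 weeks, whereas the labels give 1.2 mg/kg for 1 week. The reference was mm10. The authors removed doublets with Scrublet 0.2.1, used Scanpy 1.9.8 and ran PyDESeq2 on pseudobulk sums. No count model was fitted here, with 1 library per condition.

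Members and lists were chosen with earlier results of these data known. The UMIs of all cells in a class were added up and divided by the class total (CPM), and log2 ratios were taken with 0.5 UMIs added and an exact conditional binomial 95% interval. Genes needed 20 UMIs for list medians and 100 for the size rule. Named genes were the genes of the rule, up to 4 genes with the most member UMIs per list, interferon-induced genes below 0 in both libraries, and the 10 highest and 10 lowest genes of each contrast. A few such genes are left out of the text. Genes named beyond these (such as Ifit2, Irf7, Gbp7, Lcn2, Cgas and Nlrc5) were chosen after their values were seen. List symbols without a match (3) were not analysed here. Other classes were assigned by marker UMIs. Doublets were not removed, since the rule removes none; Scrublet in scanpy marked them by rank. Alternatives varied the rule's thresholds, depth, doublets, scaling, count minimums and single cells. Scripts used Python 3.11.15, NumPy 2.4.6, SciPy 1.17.1, pandas 2.3.3, scanpy 1.11.5 and matplotlib 3.10.9 and were tested on simulated data. Gene positions come from GENCODE vM21.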

Additional observations from a re-analysis of the deposited data

Results flagged for a closer look

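For 7 named genes the log2 ratio of members over plain mature neutrophils lay on opposite sides of 0 in the 2 libraries, with both intervals past 0, and the difference between the libraries was not tested. Over all genes 38 did so. Cd74 had 3.08 in GA and -1.40 in control, H2-Aa had 4.19 and -1.66, and H2-Eb1 had 4.40 and -1.41, and 1 GA member held most of the GA UMIs of these class II genes. Ly6g had 0.14 in GA and -1.15 in control. Gpr132 had -0.26 and 0.68, Agpat4 had -0.42 and 0.55, and Txnl1 had -0.51 and 0.79.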

How the results depend on the processing

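No paired analysis was possible because each condition has 1 library and no test was made. Of the values that answer a comparison, 106 under an alternative stayed within their counting error or within 1.5 times a count and 24 moved. For a list median, the interval of its middle gene or genes stood in for that error. The members' share of mature neutrophils in GA and control was 13.9% and 14.5% with a minimum of 3 four-gene UMIs, 3.00% and 2.81% with 10, 11.3% and 15.6% with 0.05% of a cell's UMIs, and 9.57% and 12.0% with cells thinned to 2000 UMIs and a minimum of 2. The last 2 settings also changed the Ccl3 and Ccl4 limit. In them the GA over control ratio was 0.727 and 0.80 within mature neutrophils and 1.67 and 1.83 among all kept cells. The interferon-induced median of members over plain cells was 2.30 in GA and 1.71 in control with a minimum of 10. That of GA over control members ranged from -0.11 to 0.26, so it has no direction. Genes beyond 1 log2 unit between GA and control members (66) were 16 after thinning, 164 with a minimum of 50 UMIs and 27 with 200. Genes beyond it between members and plain cells in both libraries (373) were 188 with a minimum of 3 four-gene UMIs, 65 after thinning, 98 with S100a8 and S100a9 at 10%, and 600 and 235 with minimums of 50 and 200 UMIs. Under alternatives chosen after seeing the data they were 125 without the cells rich in azurophil genes and 181 with each cell weighted equally. Of the ratios of single genes under these alternatives, 679 stayed within 0.5 log2 units, 181 moved further, and 7, all beyond 1 log2 unit as first computed, reversed: Uty at 0.17 (0.05% of UMIs) and 0.55 (thinned), Spp1 at 0.25 (thinned), Ctsg and Mpo of members over plain in GA at 0.43 and 0.31 (azurophil cells left out), and Cd74 at -0.77 (its richest cell left out) and -0.69 (the 5 strongest members left out per library). The cause of the other moves was not tested. Depth limits the control side: its 67 members hold 283390 UMIs in all.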

Other observations

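Chemokine cells, which the rule leaves out of the members, included interferon-high cells of their own. In GA 49 of 346 had at least 5 four-gene UMIs, and these stood at 23677 CPM of the interferon-induced list against 12370 in the other chemokine cells. In control 12 of 92 did, at 16749 against 9252 CPM. Among immature neutrophils, 55 GA cells and 17 control cells had at least 5 four-gene UMIs and stood at 11012 and 10385 CPM, against 7380.1 and 5757 in the other immature cells. Counting such chemokine cells as positive gave 9.52% of mature neutrophils in GA and 8.22% in control, a ratio of 1.16 (0.907 to 1.48).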
